A study of Mus musculus with 18 samples.

Results

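The genes of calcium entry and calcium reuptake of the cardiomyocyte were followed through ChIP-seq libraries of the mouse heart. The list held 9 genes, *Atp2a2*, *Pln*, *Sln*, *Slc8a1*, *Cacna1c*, *Cacnb2*, *Cacna2d1*, *Camk2d* and *Sri*. A peak belonged to a gene when it carried the symbol of the gene, here called a promoter peak, or when it carried no symbol and its midpoint lay between the start and the end of the gene, here called a body peak. By this rule 178 of the 101256 peaks belonged to 7 of the 9 genes, 15 of them at promoters and 163 in gene bodies, and 22 of the body peaks carried the identifier of a gene without a symbol. No peak carried the symbol of *Sln* or *Sri*, so no interval was given for either gene.

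Ventricles of adult mice of 3 genotypes were compared, which were WT, *Trdn-as* KO and *Mettl3* KO, all on a C57Bl6 background. In *Trdn-as* KO mice a polyadenylation signal in the first exon stops the antisense RNA early. *Mettl3* KO mice (Mettl3lox/lox:alphaMHC-MerCreMerpos) carry floxed alleles of the m6A methyltransferase and a tamoxifen-inducible Cre driven by a cardiomyocyte promoter, and received tamoxifen on consecutive days, so that other cells of the heart keep the gene. The methods of the study describe floxed controls without Cre that were given tamoxifen too, whereas the labels of these libraries name the controls WT only, so the deletion cannot be told apart from Cre, and possibly not from tamoxifen. Each genotype had 2 libraries for RNA polymerase II (Pol II), 2 for CTCF, a DNA-binding protein of chromatin loop anchors, and 1 for IgG, the background. Each chromatin preparation pooled hearts, and the labels do not say whether the libraries of a genotype came from separate animals, so p-values measure the spread between these libraries. In bulk ventricle, fewer cells of a type and less Pol II per cell cannot be told apart.

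Every heartbeat starts with calcium that enters through the L-type channel of the cell membrane and triggers a larger release from the sarcoplasmic reticulum. For relaxation the SERCA pump returns most of this calcium to the sarcoplasmic reticulum, under the brake of phospholamban, and the sodium-calcium exchanger removes the rest from the cell. The kinase CaMKII phosphorylates proteins on both arms of this cycle.

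The deposited values are reads per peak divided by a size factor of the library and rounded to whole numbers, and are called values below. Where levels of different peaks were compared, they were converted to RPM per kb, the reads per kb of peak relative to the uniquely mapped reads of the library. The Pol II libraries held 1987609 to 4953523 reads in peaks. The second *Trdn-as* KO library stood apart, with 18.6% of its reads in peaks against 42.6% in the highest library, and the IgG libraries had 4.91% to 5.71%. At the *Trdn-as* promoter the Pol II value was 530 and 595 (WT), 140 and 100 (*Trdn-as* KO) and 503 and 491 (*Mettl3* KO). At the *Mettl3* promoter, which is outside the deleted part, it was 177 and 202 (WT) and 240 and 235 (*Mettl3* KO), which checks nothing. The summed Pol II value of the 6 peaks on the Y chromosome was 279 and 326 (WT), 223 and 239 (*Mettl3* KO) and 0 in both *Trdn-as* KO libraries, so a difference in sex cannot be told apart from the *Trdn-as* KO genotype. All 8 cardiomyocyte marker genes had Pol II peaks, the lowest with a mean value of 132, and of the 4 atrial marker genes *Myl7* and *Myl4* had none, while the higher of the other 2 had a mean value of 469.

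In WT libraries, by the peak with the highest value among those that carry the symbol of a gene, the reuptake genes *Pln* and *Atp2a2* had the highest Pol II levels of the list, and *Cacnb2* had the lowest. *Pln*, which encodes phospholamban, lay under a single peak of 14.9 kb (GRCm39 chr10:53210552-53225418) that covered the gene from end to end. In WT libraries it held 27.9 ± 2.02 RPM per kb (SD, n = 2), 31.3 times the IgG level. *Atp2a2*, the gene of SERCA2, followed with 21.8 ± 1.99 RPM per kb (SD, n = 2) over a peak of 11.4 kb (chr5:122630593-122642025). *Camk2d*, the main CaMKII isoform of the heart, had 20.3 ± 1.22 RPM per kb (SD, n = 2), and its 2 WT libraries overlapped with those of *Atp2a2*. No other neighbours in this order overlapped in WT. *Cacna1c*, the pore of the L-type channel, had 17.2 ± 0.778 RPM per kb, *Slc8a1*, the exchanger, 12.1 ± 1.34, and *Cacna2d1*, the extracellular channel subunit, 9.37 ± 0.875 RPM per kb (SD, n = 2 each). *Cacnb2*, the intracellular channel subunit, came last with 3.73 ± 0.314 RPM per kb (SD, n = 2). Over the 7 genes, the promoter peak with the most Pol II had 7.68 to 31.3 times the IgG level in WT, 4.17 to 15.8 times in *Trdn-as* KO and 2.38 to 31.0 times in *Mettl3* KO libraries. In *Mettl3* KO libraries *Camk2d*, with 24.0 and 28.6 RPM per kb, lay above *Pln*, with 21.4 and 23.9, and above *Atp2a2*, with 15.1 and 17.5. In *Trdn-as* KO libraries *Camk2d* had 19.0 and 10.9 RPM per kb and *Atp2a2* 18.2 and 8.99.

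**Figure D1:**
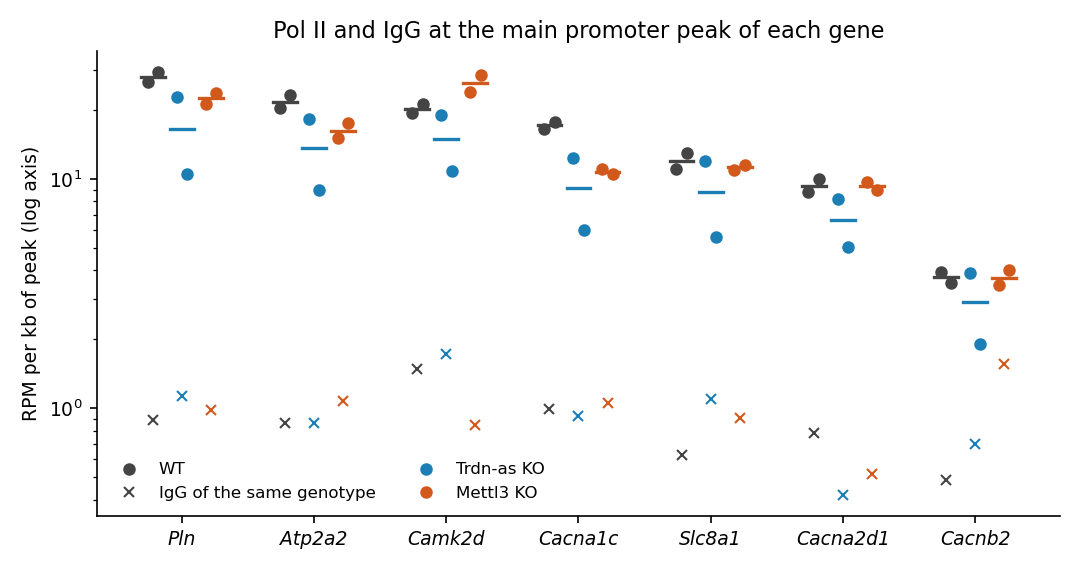
Pol II level (circles, 2 libraries per genotype, bars are means) and IgG level (crosses, 1 library per genotype) in RPM per kb of peak on a log axis, at the promoter peak with the most Pol II of each gene. *Pln* stands highest in WT with a mean of 27.9 and *Cacnb2* lowest with 3.73, and the second *Trdn-as* KO library lies below the first at each of the 7 genes.

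The promoters of the list differ in base composition. The capitals in the sequences below mark CG dinucleotides, the sites of DNA methylation, and each sequence runs from 250 bases before to 50 bases after a start site in RefSeq (GRCm38.p6, strand of the gene). RefSeq promoters were found for 7 of the 9 genes, 10 in all. *Pln* and *Camk2d*, both near the top of the order of Pol II levels, are shown for their contrast. The *Pln* promoter (chr10:53337436-53337735, plus strand) has a GC content of 36.0% and 1 CG. The *Camk2d* promoter (chr3:126596701-126597000, plus strand) has 70.3% and 31 CG. Over all 32851 promoters of the table the median was 52.7% and 7 CG, and 94.6% held at least 1 CG.
Pln: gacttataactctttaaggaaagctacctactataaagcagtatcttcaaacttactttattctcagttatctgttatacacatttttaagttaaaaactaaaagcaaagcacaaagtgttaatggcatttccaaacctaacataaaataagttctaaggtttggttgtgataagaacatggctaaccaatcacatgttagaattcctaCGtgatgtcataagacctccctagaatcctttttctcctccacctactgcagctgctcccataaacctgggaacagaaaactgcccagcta
Camk2d: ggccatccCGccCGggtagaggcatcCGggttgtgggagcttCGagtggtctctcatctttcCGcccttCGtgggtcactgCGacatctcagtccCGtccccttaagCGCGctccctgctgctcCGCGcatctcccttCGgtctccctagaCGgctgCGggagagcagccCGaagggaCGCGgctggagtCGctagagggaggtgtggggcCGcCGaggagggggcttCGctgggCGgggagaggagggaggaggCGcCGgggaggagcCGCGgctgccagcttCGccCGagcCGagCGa

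The channel subunit genes *Cacnb2* and *Cacna1c* each have several annotated starts far apart, and Pol II was not equally distributed over them. At *Cacnb2* the upstream start (1.2 kb into the gene) lay under the weak promoter peak, whereas a start 221.0 kb into the gene lay under a body peak (GRCm39 chr2:14828571-14829586). The body peak had Pol II values of 241 and 228 (WT), 206 and 181 (*Trdn-as* KO) and 186 and 162 (*Mettl3* KO). The upstream peak (chr2:14608612-14609978) had 64 and 53, 74 and 57, and 62 and 66 in the same order. Per length the downstream start held 20.2 ± 0.198 RPM per kb in WT (SD, n = 2), against 3.73 ± 0.314 at the upstream start, and 37.6 times the IgG level against 7.68 times. The level at the downstream start of *Cacnb2* was therefore close to that of *Camk2d*. At *Cacna1c* the upstream start carried the signal. Its peak (chr6:119169387-119174291) had 17.2 RPM per kb in WT, whereas the body peak 87.7 kb into the gene, over the starts of 2 transcripts, had 3.38 and the neighbouring one at 88.8 kb, over the common start of 8 transcripts, had 4.23. Pol II values were 52 and 32 (WT), 38 and 35 (*Trdn-as* KO) and 40 and 48 (*Mettl3* KO) at the former, and 54 and 54, 47 and 45, and 69 and 46 at the latter.

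The sequences of 4 of these starts are shown because those of 1 gene differ in their CG dinucleotides (capitals). In each of the 2 pairs the start with more Pol II has fewer CG, but a further RefSeq start of *Cacna1c*, 438.4 kb into the gene, has 7 CG and lay under no peak. The *Cacnb2* promoters (chr2:14604056-14604355 and chr2:14823842-14824141, GRCm38.p6, plus strand) have 35 CG and a GC content of 71.7% upstream, and 4 CG and 44.0% downstream. The *Cacna1c* promoters (chr6:119196360-119196659 and chr6:119108446-119108745, minus strand) have 3 CG and 51.3% upstream, and 57 CG and 81.3% downstream. Among all promoters of RefSeq in that table, 99.8% have fewer CG than this downstream start of *Cacna1c*. Starts were matched between the builds by their distance from the gene start. The length of *Cacnb2* is the same in both, 384821 bases, while *Cacna1c* has 609651 bases in GRCm39 and 609179 in GRCm38. Starts and introns of *Cacna1c* may therefore be misplaced by up to this difference. A further start of 2 transcripts, at 88.2 kb, missed the peak at 88.8 kb by 27 bases, so which of these 2 peaks a start belongs to is uncertain.
Cacnb2 upstream: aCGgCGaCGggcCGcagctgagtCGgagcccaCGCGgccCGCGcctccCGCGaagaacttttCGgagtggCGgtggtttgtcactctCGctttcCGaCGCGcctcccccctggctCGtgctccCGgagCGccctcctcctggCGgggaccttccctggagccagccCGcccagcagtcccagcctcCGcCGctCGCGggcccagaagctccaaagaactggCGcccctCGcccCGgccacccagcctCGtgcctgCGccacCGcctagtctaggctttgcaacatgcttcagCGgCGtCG
Cacnb2 downstream: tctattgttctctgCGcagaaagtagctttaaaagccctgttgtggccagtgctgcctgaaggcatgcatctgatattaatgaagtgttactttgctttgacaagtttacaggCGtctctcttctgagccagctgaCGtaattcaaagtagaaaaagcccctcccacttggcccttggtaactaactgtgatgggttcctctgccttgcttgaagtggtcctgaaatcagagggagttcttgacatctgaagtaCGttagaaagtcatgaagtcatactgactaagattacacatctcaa
Cacna1c upstream: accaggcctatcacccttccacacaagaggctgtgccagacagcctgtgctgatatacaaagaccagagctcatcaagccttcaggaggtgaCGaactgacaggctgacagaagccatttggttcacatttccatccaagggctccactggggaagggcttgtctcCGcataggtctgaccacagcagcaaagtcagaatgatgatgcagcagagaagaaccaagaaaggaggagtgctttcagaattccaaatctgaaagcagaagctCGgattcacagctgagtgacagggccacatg
Cacna1c downstream: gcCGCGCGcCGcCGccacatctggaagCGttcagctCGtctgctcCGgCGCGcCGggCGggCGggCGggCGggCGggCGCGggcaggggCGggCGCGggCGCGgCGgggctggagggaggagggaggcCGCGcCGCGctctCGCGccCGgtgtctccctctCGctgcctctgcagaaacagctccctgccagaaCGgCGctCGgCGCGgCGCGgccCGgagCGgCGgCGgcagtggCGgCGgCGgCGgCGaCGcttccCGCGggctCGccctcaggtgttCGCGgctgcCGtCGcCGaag

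Along the genes, the body peaks of *Atp2a2* were spread from the promoter to the end. The 39 peaks spanned 30230 of the 48713 bases of the gene, and their WT level ranged only from 3.66 to 8.75 RPM per kb with a median of 5.70. The 48 body peaks of *Cacna1c* ranged from 0 to 12.0 RPM per kb with a median of 1.93 in WT. The medians were 4.63 in *Cacnb2*, 3.56 in *Camk2d*, 1.41 in *Slc8a1* and 0.877 in *Cacna2d1*. At *Slc8a1* and *Cacna2d1* the median body peak had 1.96 and 1.76 times the IgG level, near the background. *Pln* had no body peak because its promoter peak covers it. Dense signal in *Cacnb2* lay around the downstream start, with values of 180 and 168 in WT libraries at a peak 232.0 kb into the gene.

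**Figure D2:**
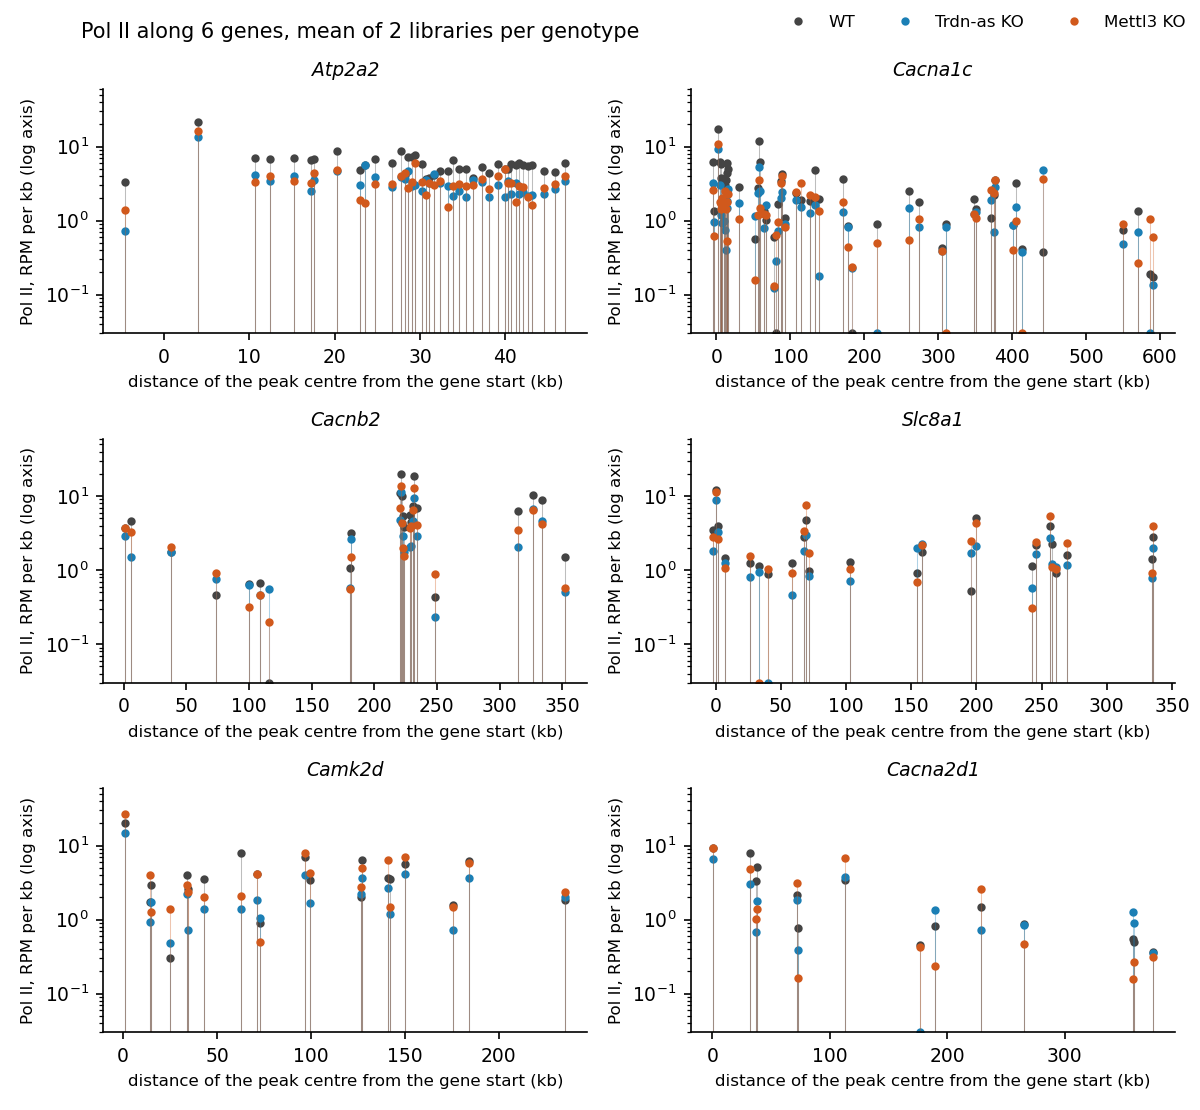
Mean Pol II level of 2 libraries per genotype in RPM per kb (log axis) at each peak, against the distance of its centre from the gene start in kb, with the upstream side left. Levels under the lower end of the axis are drawn on it, and peaks fill *Atp2a2* evenly (WT levels from 3.66 to 8.75 in the body), whereas in *Cacnb2* the highest peak lies 221.2 kb into the gene.

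The first comparison addressed whether loss of *Trdn-as* altered Pol II at these genes. With limma on log2(value + 1), 106 of the 178 peaks passed the filter on low values, and none of them passed the threshold (adjusted p below 0.05) between *Trdn-as* KO and WT hearts, with 19 at an unadjusted p below 0.05 (17.9%, against 7.70% of all peaks tested). Of all 52655 peaks tested, 160 differed (0.304%). The median log2 fold change was -0.30 over the 106 peaks and -0.07 over all peaks tested. The values of both *Trdn-as* KO libraries were smaller than either WT value at 40 of the 106 peaks (19.1% of all peaks tested) and larger at 9 (12.9% of all). The 2 *Trdn-as* KO libraries differed from each other at many of these peaks. *Pln* had 4678 in the first and 3404 in the second, against 4668 and 4824 in WT, and *Atp2a2* had 2888 and 2236 against 2762 and 2932. Only the second of these libraries was below both WT libraries at either gene. The log2 fold changes of the main promoter peaks were -0.25 (*Pln*), -0.16 (*Atp2a2*), -0.39 (*Cacna1c*), 0.11 (*Camk2d*), 0.15 (*Cacnb2*), 0.06 (*Cacna2d1*) and 0.05 (*Slc8a1*), the lowest adjusted p being 0.41 at *Cacna1c* (limma). The 4 positive ones turned negative after scaling to uniquely mapped reads, which moved the median of all peaks to -0.67. Without the first *Trdn-as* KO library, which leaves the library with few reads in peaks, 9 of the members passed the threshold, all of them lower, as were 1879 of the 1908 peaks that passed among all (3.62%).

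In *Mettl3* KO hearts 7 of the 106 peaks passed the threshold, 6 of them lower and 1 higher, while 629 of all 52655 peaks did (1.19%). The lower peaks lay in *Atp2a2* (3), *Cacna1c* (2) and *Cacnb2* (1), and the higher one was the *Camk2d* promoter. The median log2 fold change was -0.43 over the 106 peaks and 0.08 over all peaks tested. The values of both *Mettl3* KO libraries were smaller than either WT value at 49 of the 106 peaks (19.5% of all peaks tested) and larger at 14 (31.2% of all). By gene, 32 of 34 peaks of *Atp2a2*, 13 of 16 of *Cacnb2*, 14 of 22 of *Cacna1c*, 2 of 2 of *Pln*, 2 of 4 of *Cacna2d1*, 4 of 14 of *Slc8a1* and 4 of 14 of *Camk2d* had a negative fold change, against 23619 of all 52655 peaks tested. None of the 7 passed without any 1 of the WT and *Mettl3* KO libraries, when 0 to 13 of all 52655 peaks did. Without the first or the second *Trdn-as* KO library 16 members passed, when 8.65% and 8.84% of all peaks did. Over the left-out libraries the log2 fold change was -0.63 to -0.43 at the *Cacna1c* promoter, -1.82 to -1.35 at the intron peak 57.3 kb into *Cacna1c*, 0.45 to 0.57 at the *Camk2d* promoter and, with the widest range, -1.34 to -0.60 at the *Atp2a2* peak 10.6 kb into the gene. The calls also failed when libraries were scaled to uniquely mapped reads, without the filter on low values and without a variance trend in limma, when 2 to 30 of all peaks passed, although each of the 7 peaks kept its direction there.

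**Figure D3:**
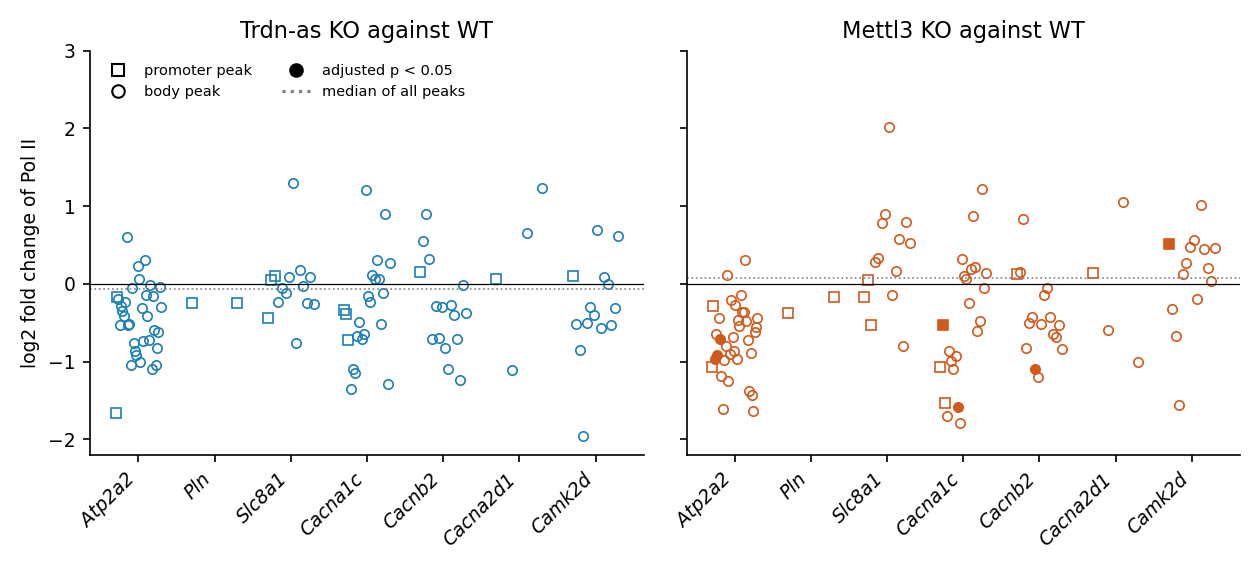
Log2 fold change of Pol II at each peak of the 7 genes that passed the filter, against WT, with promoter peaks as squares, body peaks as circles and filled symbols for an adjusted p below 0.05 (limma). In *Trdn-as* KO none of the 106 peaks is filled, and in *Mettl3* KO 6 peaks of *Atp2a2*, *Cacna1c* and *Cacnb2* are filled below zero and the *Camk2d* promoter above it.

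The body of *Atp2a2* had less Pol II in *Mettl3* KO hearts. The summed value of its 39 body peaks was 2118 and 2353 (WT), 2003 and 1459 (*Trdn-as* KO) and 1433 and 1279 (*Mettl3* KO). Both *Mettl3* KO libraries were below all other libraries. The log2 fold change against WT was -0.72 (SE 0.14, adjusted p = 0.000303 from limma over 5979 genes), and -0.38 in *Trdn-as* KO (SE 0.14, adjusted p = 0.23). The 3 single peaks past the threshold lay 10.6 to 20.3 kb into the gene, and the table assigns each of them to an unnamed gene, the first to ENSMUSG00000105970 and the other 2 to ENSMUSG00000105434. Without the peaks so assigned the log2 fold change of the body sum of *Atp2a2* was -0.68 (adjusted p = 0.0044 from limma), an alternative chosen after seeing the data. The tested peaks between them, at 12.5 kb (-0.64, adjusted p = 0.20) and at 17.7 kb (-0.44, adjusted p = 0.61), did not pass it (limma). The first, 10.6 kb into the gene (chr5:122628821-122630483), overlaps exon 4 of both coding transcripts by its distance from the start. Its values were 123 and 139 (WT), 120 and 108 (*Trdn-as* KO) and 51 and 86 (*Mettl3* KO), a log2 fold change in *Mettl3* KO of -0.97 (SE 0.26, adjusted p = 0.040 from limma). The second, 15.2 kb into the gene (chr5:122623185-122626934) and intronic, had 285 and 318, 274 and 222, and 177 and 144, with -0.91 (SE 0.20, adjusted p = 0.0066). At the third, 20.3 kb into the gene (chr5:122617583-122622335), also intronic and with the highest value of the body, though not the highest per length, the values were 467 and 480, 408 and 312, and 310 and 272, with -0.70 (SE 0.17, adjusted p = 0.023). At each of these 3 peaks both *Mettl3* KO libraries were below every WT and *Trdn-as* KO library. The differences between the knockouts at these peaks did not pass the threshold. A peak across the 3′ end of *Atp2a2* (chr5:122588159-122591995), outside the rule, had 441 and 479 (WT), 447 and 271 (*Trdn-as* KO) and 382 and 285 (*Mettl3* KO), with -0.48 in *Mettl3* KO (adjusted p = 0.19 from limma).

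At the *Atp2a2* promoter the values were 2762 and 2932 (WT) against 2267 and 2417 (*Mettl3* KO), a log2 fold change of -0.28 (SE 0.11, adjusted p = 0.19 from limma). The body thus held 43.8% ± 0.891 of the summed value of the gene in WT libraries, against 40.2% ± 1.01 in *Trdn-as* KO ones and 36.6% ± 2.85 in *Mettl3* KO ones (SD, n = 2). The exact permutation test over libraries gave p = 0.333 (two-sided) for each knockout, the smallest p that 2 against 2 allow. Tested as a ratio of body to promoter, the log2 fold change in *Mettl3* KO was -0.43 (adjusted p = 0.48 from limma), beside a median of -0.25 over all 5468 genes tested. The median over all genes was thus also negative, and none of the genes passed the threshold for this ratio in *Mettl3* KO with limma (0.00%), with 657 at an unadjusted p below 0.05. In *Trdn-as* KO 1 gene did (0.0183%), and it was no member. Of the 6 members tested, the 1 with an unadjusted p below 0.05 was *Cacnb2* in *Mettl3* KO (log2 fold change of the ratio -0.60, adjusted p = 0.41).

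*Pln*, the partner of SERCA2, had 4183 and 4280 in *Mettl3* KO libraries, below both WT libraries, but the log2 fold change of -0.17 (SE 0.10) did not pass the threshold (adjusted p = 0.42 from limma). *Slc8a1*, which removes calcium from the cell, had body values on the other side of WT than the pump. Its promoter peak had 229 and 250 (WT), 289 and 212 (*Trdn-as* KO) and 251 and 243 (*Mettl3* KO), and the 3 groups overlapped. The summed body value was 282 and 273 (WT), 310 and 232 (*Trdn-as* KO) and 432 and 346 (*Mettl3* KO), higher in both *Mettl3* KO libraries but short of the threshold (log2 fold change 0.48, SE 0.18, adjusted p = 0.13 from limma). Over the same peaks the CTCF values summed to 276 and 274 (WT), 347 and 292 (*Trdn-as* KO) and 365 and 361 (*Mettl3* KO), and the IgG values to 320, 266 and 352. The CTCF sums too were higher in both *Mettl3* KO libraries than in WT. The body peak with the most signal lay 68.9 kb into the gene (chr17:81976073-81977670), over the first exon of a downstream transcript that starts at 68.2 kb. Its values were 89 and 86 (WT), 84 and 77 (*Trdn-as* KO) and 167 and 138 (*Mettl3* KO). Both *Mettl3* KO libraries were above all others. The difference between *Trdn-as* KO and *Mettl3* KO passed the threshold (-0.91, SE 0.25, adjusted p = 0.041 from limma), and those from WT did not, with 0.79 in *Mettl3* KO (SE 0.25, adjusted p = 0.095) and -0.12 in *Trdn-as* KO (SE 0.25, adjusted p = 0.97). For CTCF the log2 fold change in *Mettl3* KO at this peak was 0.53 (adjusted p = 0.17 from limma). For Pol II it was the only 1 of 106 peaks past the threshold between the knockouts, where 790 of all peaks were (1.50%), and it passed in no fit that left out 1 library other than the first of *Trdn-as* KO, when 12 to 129 of all peaks did.

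In the channel genes, *Cacna1c* had less Pol II in *Mettl3* KO hearts at the promoter and in the body. The promoter values were 965 and 960 (WT), 841 and 641 (*Trdn-as* KO) and 713 and 623 (*Mettl3* KO), and all 4 knockout libraries were below WT. The log2 fold change was -0.53 in *Mettl3* KO (SE 0.14, adjusted p = 0.044 from limma) and -0.39 in *Trdn-as* KO (SE 0.14, adjusted p = 0.41). The largest difference among the called peaks was in an intron 57.3 kb into the gene (chr6:119115893-119117236). This peak had 165 and 201 (WT), 140 and 88 (*Trdn-as* KO) and 71 and 51 (*Mettl3* KO), in 3 groups that did not overlap. Its log2 fold change was -1.58 in *Mettl3* KO (SE 0.25, adjusted p = 0.000104) and -0.71 in *Trdn-as* KO (SE 0.25, adjusted p = 0.38), and the knockouts differed by 0.87 (adjusted p = 0.060, limma throughout). The summed body value was 642 and 711 (WT), 532 and 522 (*Trdn-as* KO) and 506 and 367 (*Mettl3* KO), with -0.65 in *Mettl3* KO (SE 0.16, adjusted p = 0.0078 from limma). Body and promoter moved alike here, and the log2 fold change of their ratio was -0.08.

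*Cacnb2* had a lower intronic peak 222.4 kb into the gene (chr2:14829803-14830727), next to its downstream start. It had 105 and 108 (WT), 72 and 59 (*Trdn-as* KO) and 40 and 61 (*Mettl3* KO), with a log2 fold change of -1.09 in *Mettl3* KO (SE 0.28, adjusted p = 0.035 from limma). The libraries of both knockouts were below WT and overlapped each other. Over the body, the values were 1071 and 1097 (WT), 919 and 765 (*Trdn-as* KO) and 794 and 777 (*Mettl3* KO), with -0.46 in *Mettl3* KO (SE 0.15, adjusted p = 0.058 from limma), just short of the threshold. At the downstream start itself the log2 fold change was -0.43 (SE 0.20, adjusted p = 0.29), and at the upstream promoter it was 0.13 (SE 0.29, adjusted p = 0.87). *Cacna2d1* had promoter values of 185 and 197 (WT), 202 and 197 (*Trdn-as* KO) and 228 and 194 (*Mettl3* KO), which overlapped (log2 fold change 0.14 in *Mettl3* KO, adjusted p = 0.78 from limma). After scaling to uniquely mapped reads, the fold changes in *Mettl3* KO of the promoters of *Cacna2d1*, *Cacnb2* and *Slc8a1* turned slightly negative, none of them past the threshold. The 13 body peaks of *Cacna2d1* summed to 97 and 122 in WT and to 103 and 87 in *Mettl3* KO libraries. Of these, the peak with the most Pol II lay 32.4 kb into the gene and passed the threshold in neither knockout. Against WT, limma gave this peak -1.10 for *Trdn-as* KO (SE 0.37, adjusted p = 0.31) and -0.59 for *Mettl3* KO (SE 0.37, adjusted p = 0.44).

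*Camk2d* was the 1 member with a higher promoter. Its values were 758 and 770 (WT), 866 and 780 (*Trdn-as* KO) and 1041 and 1136 (*Mettl3* KO). Both *Mettl3* KO libraries were above all others, with a log2 fold change of 0.51 (SE 0.13, adjusted p = 0.039 from limma). With the replicate number as a block in the model this promoter did not pass the threshold. Against *Trdn-as* KO the difference did not pass the threshold (adjusted p = 0.10). The IgG value at this peak was 206 (WT), 197 (*Trdn-as* KO) and 97 (*Mettl3* KO). Along the body of *Camk2d* the sums were 457 and 477 (WT), 457 and 315 (*Trdn-as* KO) and 540 and 511 (*Mettl3* KO) (0.17 in *Mettl3* KO, SE 0.16, adjusted p = 0.68 from limma). Its body peak with the most Pol II lay 97.0 kb into the gene and passed the threshold in neither knockout. Against WT, limma gave this peak -0.30 for *Trdn-as* KO (SE 0.26, adjusted p = 0.87) and 0.27 for *Mettl3* KO (SE 0.26, adjusted p = 0.64).

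**Figure D4:**
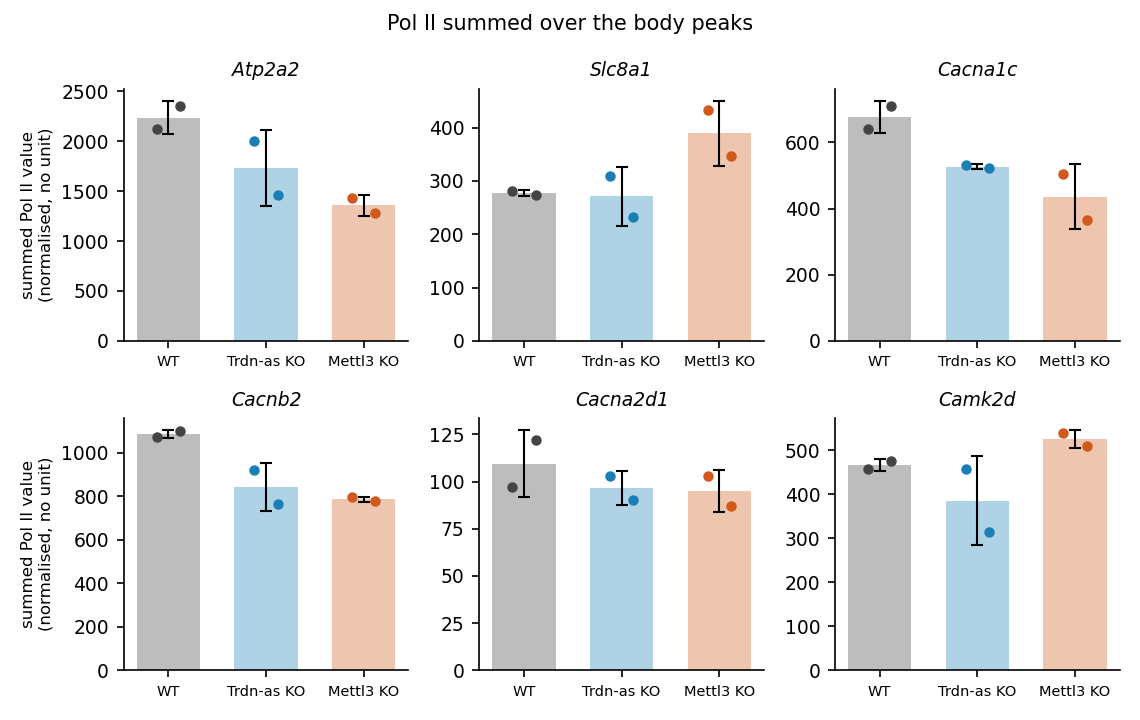
Summed Pol II value of the body peaks per library (circles), with means (bars) and SD (error bars, n = 2), on axes that start at 0. The *Mettl3* KO libraries of *Atp2a2*, 1433 and 1279, lie below all others, and those of *Slc8a1*, 432 and 346, above all others.

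Of the 6 members with a body sum, 2 passed the threshold in *Mettl3* KO, *Atp2a2* and *Cacna1c*, both lower, where 177 of 5979 genes did (2.96%). In *Trdn-as* KO none of the 6 did with limma, with 3 at an unadjusted p below 0.05 (9.87% of all genes), where 45 genes did (0.753%). Neither of the 2 sums called in *Mettl3* KO passed without either WT library or without the second *Mettl3* KO library, when 9 or 10 of all genes did, and 1 passed without the first, when 42 genes did. Without the first *Trdn-as* KO library 3 members passed in *Trdn-as* KO, all lower, as were 167 of the 178 genes that passed among all (2.98%). Beside the differences of *Mettl3* KO, the summed Pol II value over the 5 fibroblast marker genes, all with peaks, was 1501 to 1621 in WT, 1554 to 2158 in *Trdn-as* KO and 2844 to 2978 in *Mettl3* KO libraries. Of their 24 peaks tested, 8 were higher in *Mettl3* KO (limma), where 375 of all 52655 peaks tested were. Over the 8 cardiomyocyte genes the sum was 31044 to 33341 in WT, 24663 to 31585 in *Trdn-as* KO and 30298 to 30612 in *Mettl3* KO libraries, and 1 of 14 peaks was lower in each knockout. Among all 52655 peaks tested, 118 were lower in *Trdn-as* KO and 254 in *Mettl3* KO. The 4 smooth muscle genes summed to 437 to 507 in WT and 601 to 620 in *Mettl3* KO libraries, with 1 peak higher. Of the 4 adipocyte genes 3 had peaks, which summed to 1404 to 1485 in WT, 975 to 1259 in *Trdn-as* KO and 996 to 999 in *Mettl3* KO. Only 1 adipocyte gene had a mean value over 100, which was 1156. Of the endothelial, macrophage, skeletal muscle and atrial lists, 4 of 5, 3 of 5, 3 of 5 and 2 of 4 genes had peaks. In the same order, 4, 0, 2 and 1 genes had a mean value over 100. The sums of endothelial genes (1113 to 1210 in WT and 1119 to 1148 in *Mettl3* KO), of macrophage genes (55 to 60 and 53 to 56), of skeletal muscle genes (826 to 914 and 788 to 848) and of atrial genes (470 to 486 and 511 to 543) differed little from WT, and none of their peaks passed the threshold in either knockout. The part of the makeup of cells in the differences of the calcium genes was not tested.

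By value, which grows with the length of a peak, CTCF was highest at the same peaks as Pol II in *Pln*, *Atp2a2* and *Camk2d*. In WT, the promoter peaks of *Pln* summed to 524 and 491 for CTCF and 583 for IgG. Those of *Atp2a2* summed to 282 and 273 against 418, and *Camk2d* had 186 and 178 against 206. In *Mettl3* KO the IgG value at *Camk2d* was lower, 97. CTCF and IgG could not be put on 1 scale, so CTCF above the background was not shown at these peaks. Per length, the mean CTCF value over the 6 libraries was 31.0 per kb at this peak of *Pln*, 22.5 at that of *Atp2a2* and 53.5 at that of *Camk2d*, and higher at a peak of 584 bases beside *Atp2a2* (45.9) and at one 175.3 kb into *Camk2d* (99.3). *Pln* had CTCF values of 500 and 470 (WT), 478 and 497 (*Trdn-as* KO) and 410 and 414 (*Mettl3* KO). The *Mettl3* KO libraries were below all others, but the difference did not pass the threshold (log2 fold change -0.23, SE 0.05, adjusted p = 0.072 from limma). *Atp2a2* had 254 and 247, 276 and 256, and 241 and 267 in the same order, and *Camk2d* 186 and 178, 163 and 174, and 178 and 178. In the other genes the peak with the most CTCF, both by value and per length, lay in the body, 274.0 kb into *Cacna1c* (97 to 119 over the 6 libraries), 74.0 kb into *Cacnb2* (62 to 81), 71.7 kb into *Slc8a1* (49 to 75) and 375.1 kb into *Cacna2d1* (48 to 59). Of the 82 member peaks that passed the filter for CTCF, none differed between *Mettl3* KO and WT with limma, with 12 at an unadjusted p below 0.05 (14.6%, against 15.7% of all peaks tested), where 112 of 60649 peaks differed (0.185%). In *Trdn-as* KO 1 of the 82 did, where 356 of all did (0.587%). This peak, in an intron 570.5 kb into *Cacna1c* (chr6:118603246-118603532), had CTCF values of 5 and 4 (WT), 14 and 18 (*Trdn-as* KO) and 6 and 5 (*Mettl3* KO) (log2 fold change 1.62, SE 0.31, adjusted p = 0.016 from limma). It passed the filter only through the *Trdn-as* KO libraries, the IgG value there was 3 (WT), 20 (*Trdn-as* KO) and 5 (*Mettl3* KO), and it did not pass without any 1 of the 6 CTCF libraries, when 1 to 38 of all peaks did.

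**Figure D5:**
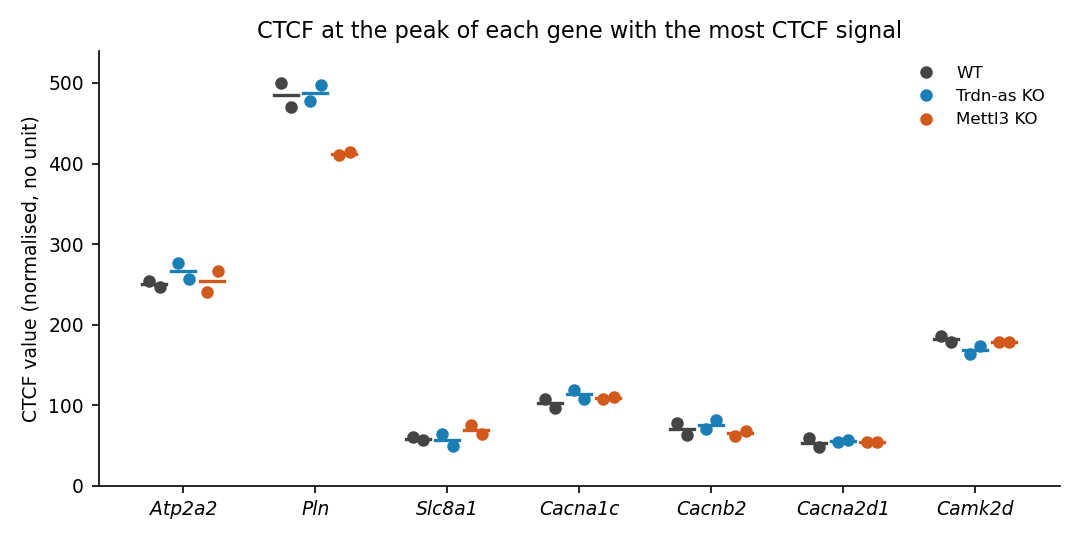
CTCF value per library (circles, 2 per genotype, bars are means) at the peak of each gene with the highest CTCF value, on a linear axis from 0. At *Pln* the *Mettl3* KO libraries, 410 and 414, lie below the others, and in the other 6 genes the genotypes overlap or lie close together.

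For *Sri*, which encodes sorcin, a calcium-binding regulator of these channels, a peak without a symbol lay between the neighbouring genes *Steap4* and *Adam22* (chr5:8105730-8107382). The table assigns it to an unnamed pseudogene, ENSMUSG00000082867, that lies within *Sri* in the GRCm38 annotation. The peak begins 591 bases and ends 2243 bases past the start of this pseudogene, and a coding transcript of *Sri* starts 1388 bases past it in GRCm38. Pol II values were 291 and 304 (WT), 346 and 246 (*Trdn-as* KO) and 391 and 400 (*Mettl3* KO). Both *Mettl3* KO libraries were above all others, and the log2 fold change of 0.41 (SE 0.18) did not pass the threshold (adjusted p = 0.25 from limma). For *Sln*, which encodes sarcolipin, a regulator of SERCA in atrial and skeletal muscle, the 10 peaks between *Cul5* and *Tnfaip8l3* had Pol II values of 0 to 9 and CTCF values of 2 to 78.

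Among 48 other genes of cardiomyocyte calcium handling, 39 had promoter peaks and 64 of their 85 peaks passed the filter for Pol II. With limma none of them passed the threshold in *Trdn-as* KO, with 4 at an unadjusted p below 0.05 (7.70% of all peaks tested). In *Mettl3* KO 21 of the 64 were at an unadjusted p below 0.05 (14 higher and 7 lower, against 15.5% of all peaks tested), and 1 passed the threshold (1.19% of all did), higher, at *Casq2*, the calcium store protein of the sarcoplasmic reticulum (chr3:101993080-101996031). It had 233 and 241 (WT), 351 and 242 (*Trdn-as* KO) and 396 and 410 (*Mettl3* KO) (log2 fold change 0.76, SE 0.18, adjusted p = 0.020 from limma). Of 51 peaks tested for CTCF none differed with limma, with 3 at an unadjusted p below 0.05 in *Trdn-as* KO (10.2% of all CTCF peaks tested) and 4 in *Mettl3* KO (15.7% of all). By list, the median log2 fold change of Pol II in *Mettl3* KO was 0.0039 over 20 peaks of the release unit, 0.09 over 12 of the other pumps and exchangers, 0.25 over 15 of the other channel subunits and 0.29 over 17 of the kinases and phosphatases, beside 0.08 over all peaks tested. Over 12 Pol II and CTCF libraries, the genes whose promoter values were nearest to those of *Atp2a2* were *Slc25a4* (Euclidean distance on the log2 scale 0.289) and *Ppp1r10* (0.463). For *Slc8a1* they were *Pde12* (0.443) and *Psmb6* (0.465), and for *Pln*, whose values are the highest of these, *Tnrc18* (0.995) and *Klf9* (1.59), among 13901 genes.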

How the data were processed

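The authors used Trimmomatic 0.39 for trimming and STAR 2.7.11b for alignment to GRCm39, removed duplicates with Picard 3.1.1, counted reads in a common peak set with featureCounts and normalized them with DESeq2 1.36.0, per the labels and the methods. The deposited signal is this normalized read number per peak, rounded to whole numbers, for 15 libraries in 1 table, and the 3 input libraries were not used here. The value of 1 read in each Pol II and IgG library was estimated from the spacing of its values, and with the uniquely mapped reads given by the study it yielded RPM. It could not be settled for CTCF, so CTCF is given as values. Fold changes on log2(value + 1) understate the change of low peaks.

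Peaks were tested if 2 or more of the 6 libraries of a target had a value of 10 or more, with limma 3.58.1 in R 4.3.3, with a variance trend, all 3 genotypes in the model and Benjamini-Hochberg adjustment over all peaks at 0.05. Body sums were tested likewise over all genes, and the log2 ratio of body to promoter sum without a trend. A single share was tested with an exact permutation test. The functions were tested on simulated data. Python 3.11.15, pandas 2.3.3, numpy 2.4.6, scipy 1.17.1 and matplotlib 3.10.9 were used. The annotation at hand was GRCm38 (GENCODE), so exons and starts were placed by distance from the gene start only, and sequences are RefSeq GRCm38.p6.

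Named were, for each member, the promoter and body peaks with the most Pol II, the peak with the most CTCF and every peak past the threshold. The members and lists were chosen with earlier results of these data known. The peak at the 3′ end of *Atp2a2*, the peaks near *Sri* and *Sln* and the second starts were chosen after their values were seen. Other scalings, filters, pseudocounts, models and thresholds and leaving out each library were tried.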

Additional observations from a re-analysis of the deposited data

Results flagged for a closer look

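At *Slc8a1* the 2 knockouts differed from each other at the body peak 68.9 kb into the gene, with a log2 fold change of -0.91 for *Trdn-as* KO against *Mettl3* KO (adjusted p = 0.041 from limma). It stands out because *Mettl3* KO libraries lay above WT there (167 and 138 against 89 and 86) and *Trdn-as* KO libraries (84 and 77) did not (log2 fold change against WT -0.12, adjusted p = 0.97 from limma), and because the test of the difference itself passed the threshold. This call was lost with uniquely mapped reads, without the filter, with only the genotypes compared and without a variance trend. CTCF at this peak had a positive fold change in *Mettl3* KO too, short of the threshold. At *Sri*, outside the comparisons of the listed genes, Pol II was 19.6 times the IgG level in WT, 14.0 times in *Mettl3* KO and 8.72 times in *Trdn-as* KO libraries, at a peak that the table assigns to a pseudogene. It stands out as signal above the background in a peak that the rule did not take in.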

How the results depend on the processing

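The number of listed peaks and genes past the threshold depended on the processing, while all 11 peaks and sums that passed it kept their direction in the alternatives run. Of 22 others followed, 9 turned in at least 1 alternative. The cause was not tested. With 2 libraries per genotype, leaving 1 out assumes that the lone library varies like the others.

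For Pol II in *Mettl3* KO against WT the 7 peaks became 2 at an adjusted p of 0.01 (195 of all peaks) and 18 with a median of ratios over the 6 libraries (where 2260 of all 50258 peaks passed, against 629 of 52655 at first). They became 16 with only the genotypes compared (4861 of all peaks). They became 0 with scaling to uniquely mapped reads (30 of all peaks), without the filter on low values (7) or without a variance trend (2). When leaving out a library each of the 7 kept its direction. Between the knockouts the 1 peak became 6 with the median of ratios (1543 of all peaks) and 2 with a pseudocount of 5 (1282 of all peaks). It became 0 at an adjusted p of 0.01 (196 of all peaks), with uniquely mapped reads (217), without the filter (17), with only the genotypes compared (128) or without the trend (12). When leaving out a library its log2 fold change was -1.04 to -0.77. In *Trdn-as* KO against WT the 0 peaks became 9 without the first *Trdn-as* KO library, with 0 to 9 over all left-out libraries, when the number of all peaks called ranged from 19 to 1908. For CTCF in *Trdn-as* KO the 1 peak became 0 at an adjusted p of 0.01 (189 of all peaks), without the filter (58) and with only the genotypes compared (37). Its log2 fold change was 1.45 to 1.79 when leaving out a library. For CTCF in *Mettl3* KO the 0 peaks became 2 with the median of ratios, where 735 of all 59219 peaks passed, against 112 of 60649 at first. Body sums past the threshold in *Mettl3* KO, 2 at first, became 4 with the median of ratios (364 of all 5893 genes, against 177 of 5979 at first) and 0 with uniquely mapped reads, without the filter or without the trend, and 0 to 3 when leaving out a library (9 to 263 of all genes). In *Trdn-as* KO the 0 body sums became 2 with the median of ratios (96 of all genes) and 0 to 3 when leaving out a library (8 to 178 of all genes). Leaving out the body peaks with the identifier of an unnamed gene was chosen after seeing the data. It gave 3 sums in *Mettl3* KO (146 of all 5484 genes, 2.66%) and 0 in *Trdn-as* KO (26 of all, 0.474%).

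Promoters turned with uniquely mapped reads in *Trdn-as* KO at *Cacna2d1* (-0.53), *Cacnb2* (-0.44), *Camk2d* (-0.50) and *Slc8a1* (-0.55), and in *Mettl3* KO at *Cacna2d1* (-0.00080), *Cacnb2* (-0.0050) and *Slc8a1* (-0.094, and -0.031 with the median of ratios). When leaving out a library, the log2 fold change in *Trdn-as* KO ranged from -0.35 to 0.021 at the *Atp2a2* promoter, from -0.031 to 0.34 at *Cacnb2*, from -0.17 to 0.27 at *Slc8a1* and from -0.26 to 0.16 for the body of *Slc8a1*, and in *Mettl3* KO from -0.00068 to 0.27 at *Cacnb2* and from -0.018 to 0.11 at *Slc8a1*. Uniquely mapped reads as library size could not be used for CTCF.

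With the replicate number as a block, the listed peaks past the threshold for Pol II were 6 in *Mettl3* KO, where 756 of all 52655 peaks passed (1.44%). All 6 were lower, the *Camk2d* promoter no longer being among them (adjusted p = 0.062 from limma). Between the knockouts 2 listed peaks passed for Pol II, where 950 of all did (1.80%). For CTCF in *Trdn-as* KO 0 passed, where 236 of all 60649 peaks did. The numbers did not pair the libraries, whose deviations correlated by -0.0096 to -0.00023 for Pol II and by -0.24 to 0.0059 for CTCF between genotypes.

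The median body peaks of *Slc8a1* and *Cacna2d1* had 1.96 and 1.76 times the IgG level, which rests on 1 library per genotype.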
